A study of Mus musculus with 6 samples.

Results

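Genes detected on the arrays labelled ST7, for a line made from NIH3T3 cells, were compared with the same genes on arrays of GFP control cells. NIH3T3 is an established line of mouse embryonic fibroblasts, the cells that build connective tissue matrix. GFP cells carried a retroviral vector for green fluorescent protein, and LT7 and ST7 cells carried a vector for SIRT7 joined to that protein, a nuclear NAD-dependent deacylase. Both SIRT7 lines were labelled as overexpressing it. Transduced cells were selected in Geneticin and grown from diluted platings. LT7 (long, spindle-shaped cells) and ST7 (small cells, from compact colonies in confluent dishes) were then separated with cloning cylinders and grown from single cells, so each line is a clone and limited as a model in that way. RNA of each line was hybridized on 2 one-colour Agilent arrays, with replicates from different passages. The p-values measure the spread between these passages. A probe entered the account when it carried an NM_ transcript accession, the mark of a curated protein-coding transcript, and when the scanner software marked it well above background on both ST7 arrays. The 6621 probes chosen in this way, out of 28369, represented 5664 of 19523 genes (29.0%). On both GFP arrays 12436 genes (63.7%) had such a probe, and on both LT7 arrays 11318 (58.0%). Of the genes found on the GFP arrays, 42.1% were also found on the ST7 arrays. The paper describes ST7 as cells that turned epithelial, with N-cadherin and fibronectin absent and collagen transcripts lower. It also reports transcript and protein of E-cadherin and occludin in ST7, both absent from GFP and LT7. Fibroblast markers were few on the ST7 arrays. Of 29 fibroblast markers 10 were above background on both ST7 arrays, against 28 on both GFP arrays, and mouse Sirt7 was on neither ST7 array. ST7 therefore names the arrays so labelled and no cell type. From which cells their RNA came was not tested, and what any ST7 to GFP difference measures rests on it.

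Fibroblasts are known for the collagens, fibronectin and the intermediate filament protein vimentin, whereas epithelial cells make keratins and cell junction proteins and neurons make neurofilaments. Homeobox genes encode transcription factors that give cells their place along the body axes. Ribosomal protein genes are used by every cell. An array probe is a stretch of DNA that captures labelled copies of 1 transcript, and different probes of a gene usually lie in different stretches of its transcripts.

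The ST7 arrays were far dimmer than the others. The processed signal at the 75th percentile of all probes, the brightness after background subtraction, was 16.3 and 17.1 on the ST7 arrays and 384 and 323 on the GFP arrays. The authors subtracted this percentile from each array on the log2 scale, and that step, called the shift here, raised every probe of ST7 relative to GFP by 4.40 log2 units. The dimness was not shared by the spike-ins. The geometric mean of 4 spike-in RNAs, added in fixed amounts, was 259 and 261 in ST7 and 276 and 309.7 in GFP. Differences are therefore given before and after the shift. The order of genes is the same on both scales. The cause of the dimness was not tested. In such bulk RNA, fewer cells of a type and less RNA per cell also cannot be told apart. Sirt7 itself was measured by a pair of overlapping probes. Its brighter probe was bright in GFP, at 3125 and 2480.2, and in LT7, at 3633 and 2782. On the ST7 arrays it read 2.85 and 3.28, and neither probe was well above background there. Relative to GFP it was at least 189-fold lower before and at least 8.96-fold lower after the shift (limma, adjusted p = 6.2e-06 and 1.7e-05). Whether these probes lie within the transduced copy is not given in the sources used here. The ST7 arrays thus lacked the Sirt7 signal of GFP. LT7, also labelled as overexpressing, read near GFP on these probes, so they cannot check the overexpression label. By immunoblot the paper found no significant difference in SIRT7GFP between LT7 and ST7. In all folds, "at least" marks a fold in which the dim group was set to the lowest signal well above background or the bright group was saturated, with means over the 2 arrays of each group.

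Of the 6621 probes, 6079 were also well above background on both GFP arrays, 151 on 1 GFP array and 391 on none. On the probes measured in both groups the median log2 difference, ST7 minus GFP, was -1.26 before and 3.14 after the shift. Before the shift 4536 of these probes were dimmer in ST7 and 1542 were brighter. After it 5085 were brighter and 993 dimmer. Over all members the medians were -1.0 and 3.40, against -1.93 and 2.47 over all NM_ probes, the like set. Over every probe on the array they were -0.68 and 3.72. The sign of 3547 members was turned by the shift, 2080 members were higher in ST7 on both scales and 993 were lower on both. With limma, at a Benjamini-Hochberg adjusted p under 0.05, 5342 of 6620 members were called higher and 732 lower after the shift. Among all 61306 probes tested, 70.7% were called higher and 19.8% lower. Before the shift 1016 members were called higher and 3466 lower, where 4.28% and 41.7% of all probes were. A member had to be bright in ST7 to be one, so these shares are a description. The split moved with the scaling. With the percentile taken over probes above background on all arrays 3974 members were higher and 1547 lower, with normexp background correction 4666 and 1344, and with spike-in scaling 175 and 914. Spike-in scaling moved the ST7 to GFP differences little, for Vim from -1.92 unscaled to -1.75. The LT7 replicates, with spike-in means of 5048 and 299.5, share that fit's estimate of spread. The spike-in counts therefore do not reflect the ST7 to GFP differences alone. Replicates lay close together. The median gap between the ST7 arrays was 0.17 log2 units before the shift and that between the GFP arrays was 0.17, and 22 members differed by more than 2 units between the ST7 arrays. The members just inside the mark had an ST7 signal from 15.3 upward, and those marked on 1 ST7 array had a median of 14.

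**Figure D1:**
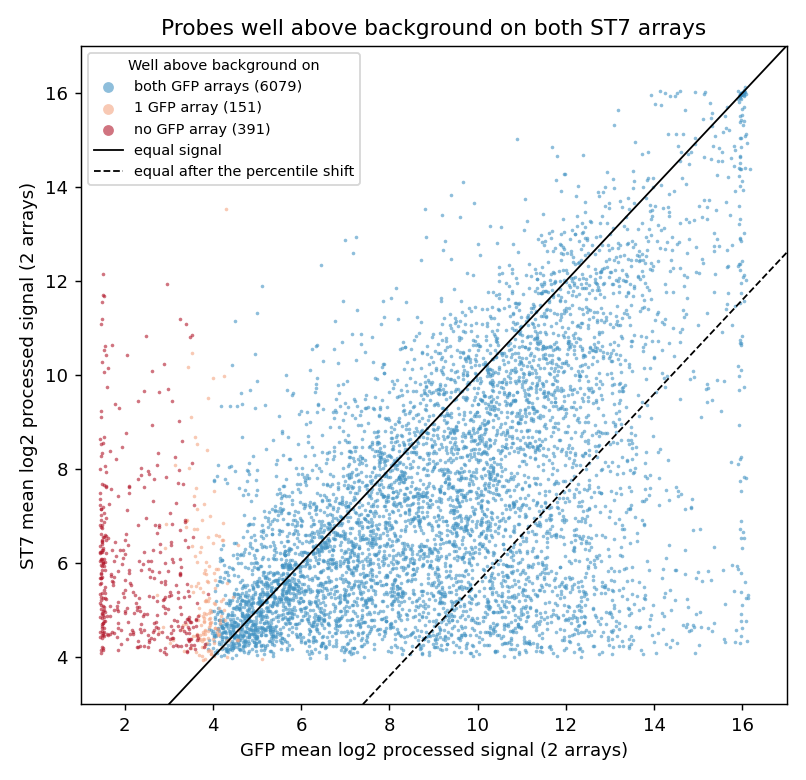
Each point is 1 of the 6621 probes detected in ST7, with its mean log2 processed signal on the GFP arrays (x axis) and on the ST7 arrays (y axis). Points below the solid line are dimmer in ST7, points between the lines are dimmer before and brighter after the percentile shift (3547 probes), and the 391 red points were well above background on no GFP array.

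A group of genes was bright in ST7 while no GFP array was well above background. The 15 with the highest fitted difference, each gene represented by its brightest probe, are described here. Their GFP signals lay at background, so their folds are lower limits and carry no order. Pitx1 is a homeobox factor of the hindlimb and pituitary. Its signal was 2.86 and 2.79 in GFP and 4299.9 and 4869 in ST7, or 4585 ± 403 (SD, n = 2). The groups lay at least 339-fold apart before and at least 7154-fold apart after the shift (limma, adjusted p = 4.3e-06 and 1.7e-05). Hoxa11, a posterior homeobox gene, read 2.87 and 2.88 in GFP and 3253 and 3273 in ST7, at least 242-fold apart before the shift. Other transcriptional regulators were among the 15. Dach1, a corepressor of eye and limb development, read 2.82 and 2.81 in GFP and 2724 and 3319 in ST7. The T-box gene Tbx1 read 2.94 and 2.95 in GFP and 1613 and 1516 in ST7. The LIM homeobox gene Lhx2 read 2.82 and 2.79 in GFP and 1289 and 1191 in ST7. Being found on both ST7 arrays and on no GFP array was the rule that chose these genes, not a finding about them.

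Several of the genes are best known from neurons. Uchl1, an abundant ubiquitin hydrolase of neurons, read 2.82 and 2.74 in GFP and 2163 and 2534 in ST7. Nat8l, which makes N-acetylaspartate, read 2.77 and 2.77 in GFP and 2164 and 2195 in ST7. The synaptic vesicle gene Syngr1 read 9.13 and 6.52 in GFP and 3811 and 3989.7 in ST7. These genes met the same rule. The neurofilament gene Nefl was at 2.80 and 3.31 in GFP and 794 and 921 in ST7, at least 63.4-fold apart before the shift. The remaining genes have other roles. The kinase gene Stk32c read 1768 and 1430.3 in ST7, the myosin light chain gene Myl6b 1493 and 1466 and the adrenergic receptor gene Adra2a 1246 and 1532, with at most 5.84 on a GFP array. The keratin gene Krt18, typical of simple epithelia, read 6.64 and 4.64 in GFP and 1881 and 1755 in ST7, at least 135-fold apart before the shift. The growth factor gene Bmp2 read 3.10 and 3.06 in GFP and 1119.8 and 1163 in ST7, with 4.74 and 31.0 in LT7. The T cell costimulator gene Cd86 differed between replicates. It read 30091 in ST7 replicate 1 and 38.6 in ST7 replicate 2, and its log2 difference was not called before the shift (adjusted p = 0.090) but was called after it (limma, adjusted p = 0.0085). With GFP taken at its background reading, its fitted difference after the shift without ST7 replicate 1 was 8.11, and without ST7 replicate 2 it was 17.79. Without GFP replicate 1 or GFP replicate 2 it was not called (limma, adjusted p = 0.053 and 0.051). The other 14 genes were called on both scales, with adjusted p of at most 0.0010 (limma). These genes were picked for a high difference over GFP readings at background. Their direction, calls and p-values are therefore a description and no support.

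**Figure D2:**
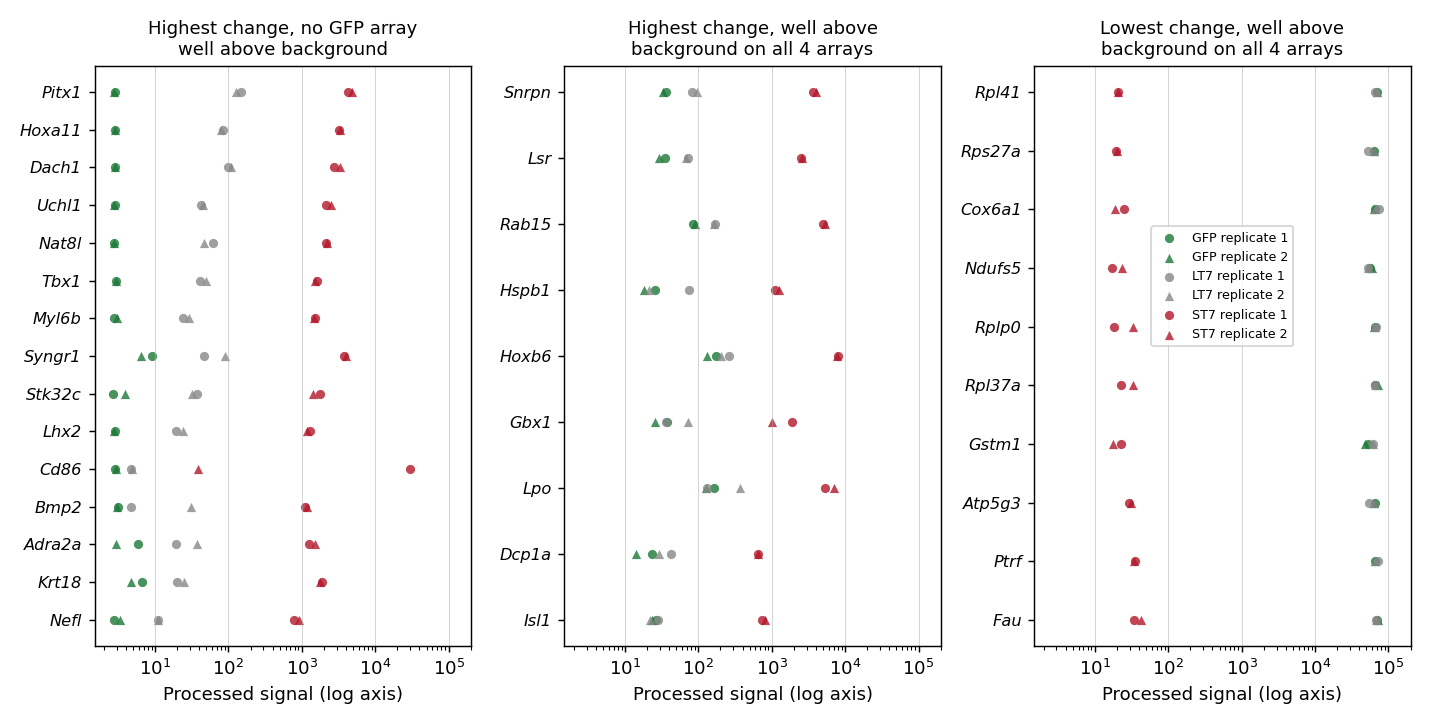
Processed signal (log axis) of the 15 genes with the highest difference among those above background on no GFP array, and of 9 of the highest and the 10 lowest genes above background on all 4 GFP and ST7 arrays. Circles are replicate 1 and triangles replicate 2. In the first panel 9 of 15 genes are well above background on both LT7 arrays and the GFP points lie at background, in the second the LT7 mean lies nearer to GFP than to ST7 for 9 of 9, and in the third GFP and LT7 coincide near the top of the range while ST7 lies between 17.3 and 43.2.

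The LT7 arrays, which took no part in choosing these genes, carried many of them at a low level. Of the 15 named genes 9 were well above background on both LT7 arrays. Both LT7 signals also exceeded both GFP signals for all 15, but so they did for 67.4% of 8220 probes above background on no GFP and no ST7 array, as LT7 read higher at background, at a median of 4.68 and 4.75 against 2.90 and 2.93 in GFP. Pitx1 read 149 and 127 on the LT7 arrays, Hoxa11 85.0 and 78.2 and Dach1 98.1 and 108, each well above background on both LT7 arrays. Of the 391 probes above background in ST7 and on no GFP array, 33 had a mean ST7 signal of 500 or more, a limit set after the values were seen. On these the median LT7 signal was 2.24% of the ST7 mean in LT7 replicate 1 and 2.71% in LT7 replicate 2. The interquartile range over the 33 probes ran from 1.78% to 2.90%. The LT7 mean lay between 1% and 10% of the ST7 mean for 31 of the 33 probes. On both LT7 arrays 15 of the 33 (45.5%) were well above background. Among the 8220 probes above background on no GFP and no ST7 array, 13 (0.158%) were. Of the 358 dimmer probes 1 was well above background on both LT7 arrays. The median LT7 signal of these dimmer probes was 5.05 and 4.95, near the background level just given, so a small share of the ST7 level was not detectable there. LT7 replicate 1 was scanned apart from the other arrays and LT7 replicate 2 together with them. All 6 arrays were on 1 slide. How these low levels came about was not tested.

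**Figure D3:**
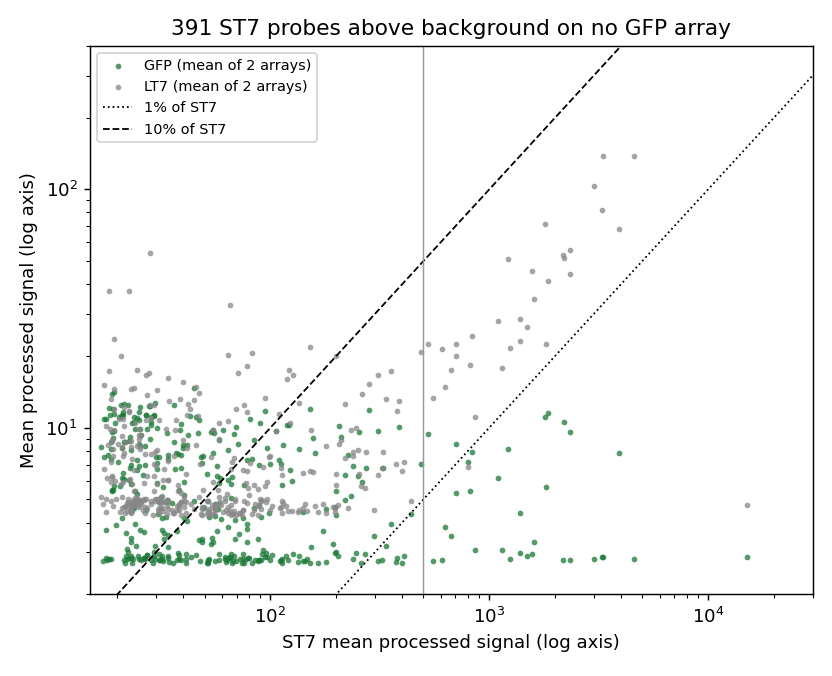
The 391 probes detected in ST7 that no GFP array showed well above background, with the ST7 mean processed signal on the x axis and the GFP and LT7 means on the y axis, both log axes. To the right of the vertical line at 500, 31 of 33 LT7 means lie between the dotted line (1% of ST7) and the dashed line (10%), while GFP stays near its background.

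Among genes well above background on all 4 arrays, 9 of those with the highest difference ranged from 4.98 to 6.80 log2 units before the shift and were called on both scales (limma, adjusted p of at most 0.0012). Snrpn, an imprinted gene for a splicing protein that is high in brain, read 36.1 and 32.7 in GFP and 3671 and 3985 in ST7, with 80.9 and 95.5 in LT7. It was 111-fold higher in ST7 than in GFP before the shift. Lsr, a lipoprotein receptor of epithelial tricellular junctions, read 34.9 and 29.1 in GFP and 2493 and 2589 in ST7. The GTPase gene Rab15 rose from 84.2 and 89.3 in GFP to 5027 and 5313 in ST7. These genes were picked for a high difference, so their direction and calls are a description. Hoxb6, Isl1 and Gbx1 are homeobox genes. Hoxb6 read 176 and 130.1 in GFP and 7901 and 7709 in ST7. Isl1, a LIM homeobox gene of motor neurons and pancreas, read 26.5 and 23.1 in GFP and 745 and 820.1 in ST7. Gbx1 read 37.3 and 25.4 in GFP and 1913 and 1016 in ST7, with a wide spread in ST7. The small heat shock gene Hspb1 was 54.8-fold higher before the shift, the decapping gene Dcp1a 35.7-fold and the peroxidase gene Lpo 42.7-fold.

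The 10 genes with the lowest fitted difference were bright in GFP and close to the lowest member signals in ST7, as the choice required. Saturation in GFP leaves their order unmeasured. They included ribosomal protein genes, while others of that family were saturated in ST7, as given below. Rpl41, a protein of the large ribosomal subunit, read 69998 and 70324 in GFP and 20.5 and 20.4 in ST7. With both GFP arrays saturated it was at least 3429.8-fold lower before and at least 163-fold lower after the shift (limma, adjusted p = 4.3e-06 and 1.7e-05). Rps27a, which joins ubiquitin to a protein of the small subunit, read 63172 and 63515 in GFP and 19.3 and 20.1 in ST7. Rplp0 read 18 and 33.2 in ST7, Rpl37a 22.5 and 33.4 and Fau 34.1 and 43.2, all against at least 64211 in GFP. Cox6a1, Ndufs5 and Atp5g3 serve oxidative phosphorylation. The cytochrome oxidase gene Cox6a1 read 64910.4 and 63737 in GFP and 25.4 and 19.1 in ST7, the complex I gene Ndufs5 17.3 and 23.4 in ST7 and the ATP synthase gene Atp5g3 29.2 and 31.1. Gstm1, a glutathione transferase, fell from 52010.5 and 47399 to 22.4 and 17.8. Ptrf, now named Cavin1, which coats caveolae, fell from 65543 and 64837 to 35.0 and 34.2. Each of the 10 was lower on both scales, with an adjusted p of 1.7e-05 after the shift (limma), and 8 of them were saturated on both GFP arrays. They were picked for a low difference, so these calls are a description as well. Ribosomal protein genes have many near-identical copies in the genome, so which copy a probe measured is uncertain.

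The arrays were checked against fibroblast markers. Of 29 fibroblast markers on the array, 28 were well above background on both GFP arrays, 28 on both LT7 arrays and 10 on both ST7 arrays, with 17 on neither ST7 array. Their summed signal was 535272 and 518499 in GFP and 20931 and 24559.5 in ST7. The 10 markers found in ST7 had 21 probes, of which both ST7 arrays showed 11 above background and neither showed 9. Vim read 14612 and 16192 in ST7 against 58774 and 57619.8 in GFP, a log2 difference of -1.92 before and 2.48 after the shift. One probe each of the smooth muscle genes Acta2 and Tagln likewise fell before the shift and rose after it, while their other probes were lower in ST7 on both scales. The Tagln probe that stands for its gene read 9414 and 11141 in GFP and 2019 and 3225 in ST7, a difference of -2.0 before and 2.39 after the shift. Its other probe read 862 and 731 in GFP and 9.33 and 3.38 in ST7, not above background there. The Acta2 probe that stands for its gene read 10330.1 and 10567 in GFP and 3677 and 4569.6 in ST7, and the other probes 38439 and 38047 in GFP and 46.0 and 70.5 in ST7, and 768 and 579 in GFP and 2.83 and 4.91 in ST7. Averaged over its member probes, Acta2 differed by -0.97 after the shift. The remaining 7 markers were lower in ST7 on both scales (limma, adjusted p of at most 0.0071 after the shift). The collagen gene Col1a1 read 61238 and 61798 in GFP and 295 and 255 in ST7, and Col1a2 fell from 64313 and 69461 to 98.1 and 86.6. The matrix protein gene Sparc fell from 29554 and 25598 to 43.4 and 32.9, and the mesenchymal homeobox gene Prrx1 from 15872 and 15546 to 31.4 and 28.3. S100a4 read 35.7 and 44.5 in ST7, at least 1808-fold lower before the shift. Fn1, which encodes fibronectin, differed by -6.01 before and -1.61 after the shift, and the collagen gene Col6a2 by -5.44 before and -1.04 after the shift. Another Fn1 probe, above background on neither ST7 array, differed by -10.9 before and -6.53 after the shift. Col1a1, Sparc and Prrx1 also had a probe found on neither ST7 array. All probes of these genes were lower in ST7 on both scales. The defining fibroblast markers were thus absent or far lower on the ST7 arrays, with the exception of Vim and of 1 probe each of Acta2 and Tagln.

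Markers of other cell types were few. Of 29 epithelial markers 4 were members against 7 on the GFP arrays, and their summed signal was 2149.8 and 2061 in ST7 and 1269 and 1036 in GFP. The members were Cldn3, Epcam, Krt18 and St14. The E-cadherin gene Cdh1 and the occludin gene Ocln, also listed, were not members. Of the 30 genes listed 29 had an NM_ probe. Most of the ST7 sum was Krt18. Epcam, an adhesion molecule of epithelia, read 5.38 and 3.03 in GFP and 86.7 and 94.0 in ST7, at least 6.69-fold apart before the shift. The protease gene St14 read 13.4 and 11 in GFP and 24.3 and 20.6 in ST7. The claudin gene Cldn3 read 38.7 and 32.3 in GFP and 44.5 and 39.1 in ST7, not called before the shift (limma, adjusted p = 0.59). Of 12 neuronal markers 4 were members, with a summed signal of 1375 and 1602 in ST7 and 383 and 388 in GFP. All of these encode filament or tubulin proteins. Ina rose from 70.1 and 73.0 to 382 and 455 and differed by 2.54 before and 6.94 after the shift, Nefm read 40.3 and 39.5 in ST7, and Tubb3 read 221 and 266 in GFP and 132 and 150.1 in ST7, a difference of -0.78 before and 3.61 after the shift. Of 9 pluripotency markers 4 were members. Sox2 read 2.87 and 2.89 in GFP and 71.7 and 122 in ST7, at least 6.93-fold apart before the shift. The probes of Lin28b disagreed. One read 6.23 and 2.83 in GFP and 27.9 and 26.1 in ST7, and the other, above background on both GFP arrays and no ST7 array, 20.3 and 14.8 in GFP and 2.84 and 3.35 in ST7. Sall4 read 501 and 274 in ST7, not called before the shift (limma, adjusted p = 0.30), and Utf1 29.1 and 27.1. Utf1 was lower than in GFP before the shift and higher after it (-1.32 before and 3.08 after the shift). Muscle markers gave 2 members of 9, Ckm with 36.1 and 39.4 in ST7 and Actc1, which fell from 3217 and 2815 to 60.3 and 58.4. Of 11 leukocyte markers 1, Cd3e, was a member at 61.5 and 63.6 against 49.8 and 45.6 in GFP, and of 9 endothelial markers none was.

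Gene families differed widely in the share that remained above background. Of the families named by a common start of their symbols, several of basic cell functions were among the fullest on the ST7 arrays. The RNA-binding hnRNPs had 17 of 20 in ST7 against 20 in GFP, the cytosolic ribosomal proteins 65 of 84 in ST7 against 82 in GFP, the ubiquitin-conjugating enzymes 24 of 33 in ST7 against 32 in GFP, the proteasome 35 of 49 in ST7 against 47 in GFP and the translation factors 42 of 66 in ST7 against 62 in GFP. Mitochondrial families kept fewer members than these, at shares near or below that of all genes. Of all genes found in GFP 42.1% were also found in ST7. The share was 45.2% for complex I, 41.2% for ATP synthase, 34.7% for mitochondrial ribosomal proteins and 31.8% for cytochrome oxidase. The mitochondrial ribosomal proteins had 26 of 75 in ST7 against 75 in GFP, respiratory complex I 19 of 42 in ST7 against 42 in GFP and cytochrome oxidase 7 of 26 in ST7 against 22 in GFP. The MCM helicase, which unwinds DNA for replication, had 2 of 10 in ST7 against 10 in GFP. Among all genes 29.0% were above background in ST7 and 63.7% in GFP. Families of the cell surface, matrix and defence differed among themselves. Above the share of all genes were collagens, at 16 of 38 in ST7 against 28 in GFP, and histocompatibility genes, at 13 of 38 in ST7 against 19 in GFP, and laminins had 3 of 10 in ST7 against 6 in GFP. Below it were integrins at 4 of 26 in ST7 against 17 in GFP, matrix metalloproteinases and Adamts proteases at 4 of 45 in ST7 against 20 in GFP, serpins at 4 of 53 in ST7 against 22 in GFP and interferon-induced genes at 6 of 48 in ST7 against 33 in GFP. Of 34 chemokine genes 0 were members, where 12 were above background in GFP. Zinc finger genes had 78 of 304 in ST7 against 253 in GFP. The Hox genes went the other way, with 28 of 39 in ST7 against 21 in GFP. Olfactory receptor genes, which fibroblasts are not known to use, had 98 of 1050 in ST7 against 123 in GFP, with a median ST7 to GFP difference of 0.25 before the shift. Of these 10 were above background on no GFP array. Defensins, at 6 of 61 in ST7 against 5 in GFP, and kallikreins, at 6 of 26 in ST7 against 7 in GFP, stood at low counts in both groups. Keratins had 8 of 47 in ST7 against 14 in GFP, of which Krt18 alone was above background on no GFP array. Cadherins and protocadherins had 12 of 66 in ST7 against 32 in GFP, of which 4 were above background on no GFP array, and a median difference of 0.44 before the shift. Histones had 33 of 54 in ST7 against 47 in GFP with a median of -0.63, solute carriers 78 of 357 in ST7 against 208 in GFP with a median of -0.53 and heat shock proteins 32 of 69 in ST7 against 58 in GFP with a median of -1.46, where all members had a median of -1.0. No family was tested against the others.

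**Figure D4:**
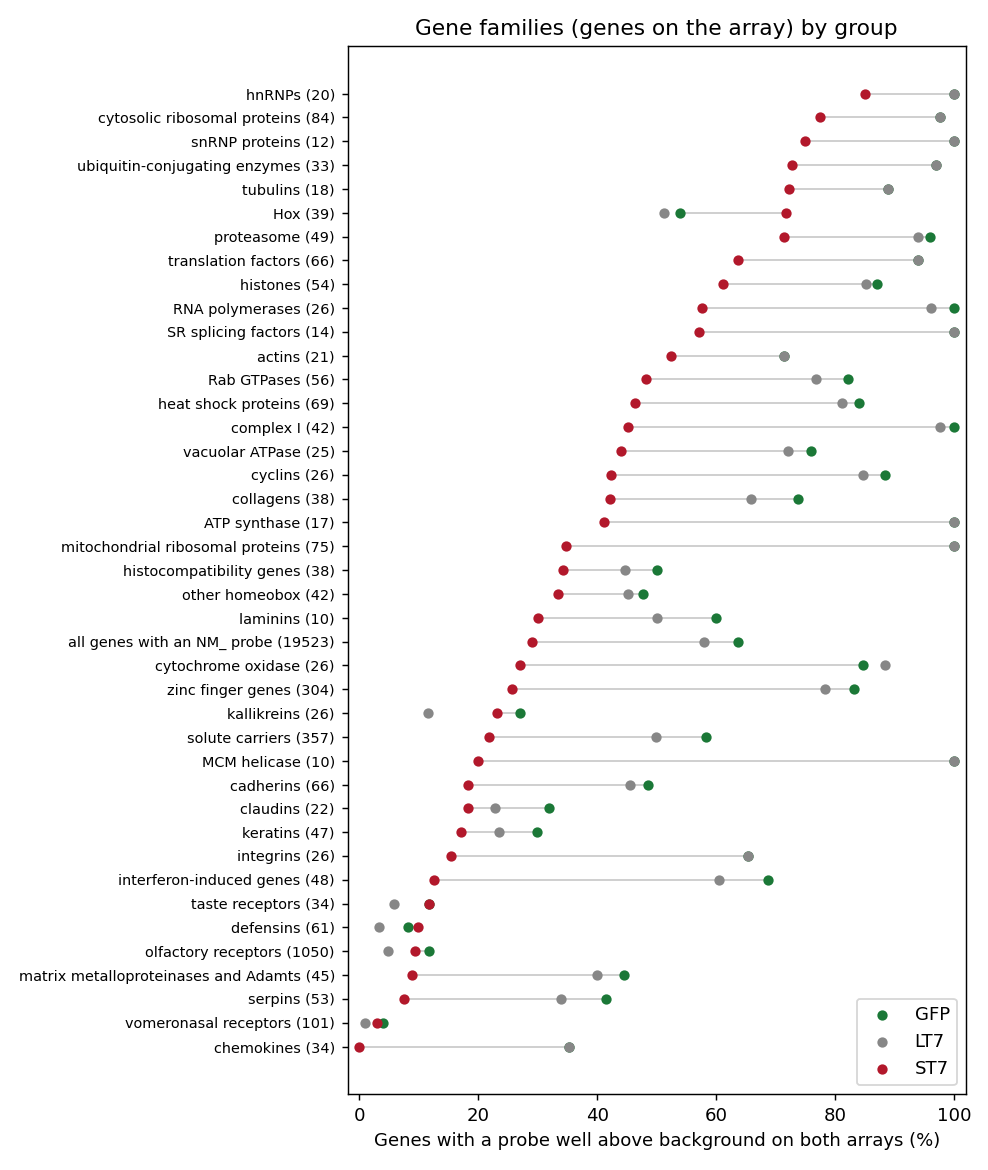
Share of the genes of each family with a probe well above background on both arrays of a group, for families of 10 or more genes (number of genes in brackets), ordered by the ST7 share. Where no green point is seen, GFP coincides with LT7, or with ST7 for taste receptors. ST7 lies to the right of GFP for Hox genes (71.8% against 53.8%) and defensins, and to the left for all other families but taste receptors.

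Levels within families varied as well. The Hox genes, whose products pattern the body axis, had a median log2 difference of 2.75 before and 7.15 after the shift over 28 members, where all member genes had -1.0 and 3.40. With members found on no GFP array set to their lower limits, the medians were 1.91 and 6.30, against -1.0 and 3.40. Before the shift 18 of 28 Hox members were called higher and 1 lower, beside 822 and 2770 of all 5274 named member genes. After it 27 and 0 were, beside 4253 and 574, so most member genes were called higher there. Members above background on no GFP array had their direction set by the rule of choice. They were 10 of 28 Hox members and 304 of all 5664 member genes, so these counts of calls are a description. By cluster, 8 of 11 Hoxa genes, 8 of 10 Hoxb genes, 6 of 9 Hoxc genes and 6 of 9 Hoxd genes were found in ST7, against 8, 4, 4 and 5 in GFP. Of the 28 Hox members 10 were above background on no GFP array. These were Hoxa11, Hoxb13, Hoxb2, Hoxb7, Hoxb8, Hoxc10, Hoxc11, Hoxc12, Hoxd11 and Hoxd13. Hoxd13 read 2.71 and 2.72 in GFP and 370.3 and 431 in ST7, and Hoxb2 read 5.86 and 2.83 in GFP and 439 and 437 in ST7. Both rose on both scales. At the other end Hoxa7 fell from 6855 and 6685 to 221 and 174 before the shift and was not called after it (-5.11 before and -0.71 after the shift, limma, adjusted p = 0.091 after it). Without either LT7 array, which leaves the spread to the GFP and ST7 arrays, it was called (limma, adjusted p = 0.046). Hoxd4 and Hoxd3 differed by -0.55 and -0.63 before the shift, which did not pass the test, and by 3.85 and 3.77 after it. Other homeobox genes (such as Pitx, Dlx, Lhx, Msx, Pax and Meis genes) had 14 of 42 in ST7 against 20 in GFP and a median of 0.38 before the shift. Pax6, a master gene of the eye, read 8.80 and 12.4 in GFP and 2308 and 2064 in ST7. Meis2, a cofactor of Hox proteins, was among the lowest, at -1.11 before the shift, and turned to 3.29 after it.

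The ribosomal protein genes spanned the whole range. Their median log2 difference was -1.59 before and 2.81 after the shift. Rpl15, Rps2 and Rps18, among those with the highest fitted difference, were saturated on both ST7 arrays. Rps18 read 64512 and 64653 in GFP and 64154 and 67277 in ST7. It and Rps2 were saturated on both GFP arrays as well, so no difference can be read for them, and Rpl15 was at least 1.05-fold higher before the shift, which did not pass the test (limma, adjusted p = 0.76). Rpl41, Rps27a and Rplp0, given above, were at the opposite end with signals of at most 33.2 in ST7. By probe, 82 of 120 ribosomal protein probes found on both GFP arrays were also found on both ST7 arrays and 34 on neither. Hnrnpd, an AU-rich element binding protein, rose from 9102 and 9575 to 48330.2 and 54141 (2.45 before and 6.85 after the shift), while Hnrnpu and Hnrpdl, now Hnrnpdl, differed by 0.48 and 0.42 before the shift, which did not pass the test. Hnrnpa0 fell from 4509 and 4046 to 47.6 and 23.4, and Hnrnph3 from 5985 and 4569.5 to 126 and 114. The Hnrnph3 fit lacked LT7 replicate 1, whose spot was an outlier, and without ST7 replicate 2 its difference after the shift was -0.94 and not called (limma, adjusted p = 0.057). Hnrpll, now Hnrnpll, differed by -4.32 before and 0.08 after the shift, which was not called after it (limma, adjusted p = 0.78). Among tubulins, the microtubule subunits, Tuba3a rose from 19568 and 21450.1 to 34009 and 37110.5 and Tuba4a read 33853 and 37652 against 22404 and 24089.5 in GFP, whereas Tuba1a fell from 49075 and 47022 to 49.7 and 68.2. Tuba8 was found in ST7 and on no GFP array, at 40.4 and 43.4. Tubb2c, now Tubb4b, and Tubb1 differed by -1.62 and -2.31 before and by 2.78 and 2.09 after the shift. Of the collagens, Col4a4, a chain of basement membranes, rose from 822 and 934 to 1261 and 1464. Col25a1 read 29.1 and 19.4 and Col9a3 25.2 and 25.5 in ST7, near the lowest member signals. Col8a1 fell from 12318 and 13663 to 30.4 and 33.7, as did the type I chains above.

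Different probes of the same gene often gave opposite answers on the ST7 arrays. There were 4444 genes with 2 or more NM_ probes well above background on both GFP arrays. On the ST7 arrays every such probe was again above background for 546 genes (12.3%) and none on either array for 1690 (38.0%). For 1717 genes (38.6%) at least 1 probe was found on both ST7 arrays and at least 1 on neither. On the LT7 arrays, read in the same way, 306 of these genes (6.89%) had probes that disagreed and 3746 (84.3%) had every probe above background.

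The gap differed with the sequence that probes shared. Pairs of probes of a gene that shared under 20 bases in a row, 6834 pairs, differed in their ST7 to GFP difference by a median of 2.93 log2 units, and by 0.26 in their LT7 to GFP difference. Probes at background or saturated entered these medians at the signal read, so these medians describe readings, not measured gaps. The 264 pairs that overlapped by more had medians of 0.74 and 0.09. The 88 pairs of identical sequence had medians of 0.18 and 0.08, of the order of the gap between replicate arrays. One probe was found on both ST7 arrays and the other on neither in 35.4% of unlike pairs, 13.3% of overlapping pairs and 0 of the identical pairs. Identical probes thus read alike on the ST7 arrays, and probes of different stretches of a gene often did not.

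Genes with the widest gaps show how this looked probe by probe. Ccni, a cyclin family member, had 2 probes that rose and 2 that fell to background, on both scales. Its most raised probe went from 738 and 475 to 6119.9 and 6815 and another went from 6423 and 6113 to 2.95 and 3.43. Rpl36a, of the large ribosomal subunit, read 57410.4 and 57610.4 in ST7 with one probe. Its other probes read at most 3.19 in ST7, and all 3 were saturated on both GFP arrays. Ssrp1, a histone chaperone, had a pair of probes of identical sequence that were at least 1.80-fold and at least 1.78-fold higher before the shift, both saturated on both ST7 arrays. Its remaining probe read 26483 and 30972 in GFP and 2.79 and 3.12 in ST7. Rpn2, which attaches sugars to proteins, read 1890.2 and 1691 in GFP and 2579 and 2512 in ST7 with one probe. The other read 26114 and 28190.0 in GFP and 2.84 and 3.18 in ST7. In the adaptor gene Grb10 a probe with 145 and 127 in GFP read 224 and 233 in ST7. Its others were above background on no ST7 array, one with 356 and 120.2 in GFP and one with 13056 and 13968 in GFP. The secretory GTPase gene Sar1a read 1064 and 1151 in GFP and 1159 and 1258 in ST7 on one probe (limma, adjusted p = 0.69 before the shift), and was at least 1486-fold lower before the shift on the other. Shmt2, an enzyme of serine and folate metabolism, rose from 1296 and 1589 to 4847 and 5302 on one probe and was at least 448-fold lower before the shift on the other. Of the 19 probes of these genes, 16 were saturated on no GFP or LT7 array, and on these LT7 differed from GFP by -0.29 to 0.44 log2 units before the shift. These genes were picked for their gaps, which are limits and a description. Markers were touched as well, as the probes of Acta2, Tagln, Lin28b, Col1a1, Fn1, Sparc and Prrx1 given above show.

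**Figure D5:**
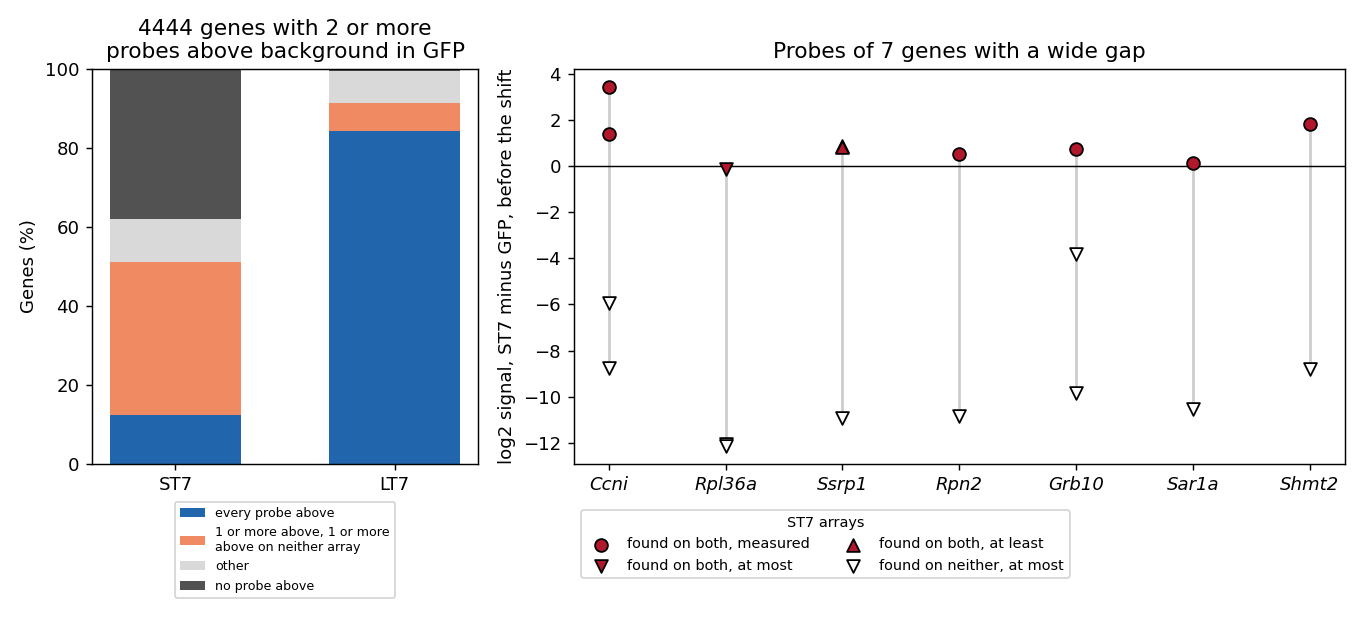
Left, the 4444 genes with 2 or more NM_ probes well above background on both GFP arrays, as a percentage by how their probes read on the ST7 and LT7 arrays, and right, the log2 difference before the shift of each probe of 7 of the genes with the widest gap. Probes disagree for 38.6% of genes in ST7 and 6.89% in LT7, and triangles stand for limits, where the ST7 arrays were not well above background or an array group was saturated. Within 1 gene the filled points lie near or above 0 and the open ones, found on neither ST7 array, far below.

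The first 30 of 60 bases of some of these probes are shown, as the deposited files give them, because the disagreement follows the stretch probed. Capitals mark TAA, TAG and TGA, the triplets that stop translation in the reading frame of a protein.
Ccni probe found in ST7: gattttcttcacattttccatgccattgcg
Ccni probe not found in ST7: ttatgccatTAGgattttctTGATAAggaa
Rpl36a probe found in ST7: atcTAAgaggatgctggccatTAAgagatg
Rpl36a probe not found in ST7: gacaaTAAaatctTGAcctttcaacccctt
Ssrp1 probe found in ST7: gTAGctccTAATAGgggcctatttctactt
Ssrp1 probe not found in ST7: gagactcggTAGgagtgtgttgtcttctac
Coding sequence is free of these triplets in the frame that is read, whereas untranslated sequence is under no such constraint. Over all 60 bases, the Ccni and Rpl36a probes shown as found left at least 1 of the 3 frames free of them, and those shown as not found left none. In Ssrp1 it was the other way around. Ccni and Rpl36a each also had a probe not found in ST7 and not shown, which did have a free frame. Among all probes of the 7 genes, a free frame was present in 6 of 9 found in ST7 and in 6 of 10 found on neither ST7 array.

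Over all probes above background on both GFP arrays, a free frame was present in 90.2% of the 6079 also found in ST7 and in 77.0% of the 10929 found on neither ST7 array, against 82.7% of all NM_ probes. Within the 1717 disagreeing genes it was present in 91.9% of 1971 probes found and in 75.4% of 2140 probes not found. Gene by gene, the share was higher among the probes found for 464 genes, lower for 114 and equal for 1139. The median GFP signal of the probes was similar in these genes, 534 for the probes found and 496 for those not found. The found probes were also richer in G and C, with a median of 45% against 40%. For LT7 the order was the opposite, with a free frame in 81.4% of probes found and 87.0% of the 1027 found on neither LT7 array, whose median GFP signal was 22.7. Free frames and base composition moved together in these shares. GFP level did not always do so, as it was similar within the disagreeing genes. Over all probes its median was 642 for those found in ST7 and 412 for those found on neither ST7 array. The separate parts of the 3 were not tested.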

How the data were processed

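Cy3-labelled RNA of GFP, LT7 and ST7 cells (n = 2 each) was read on 6 arrays of 1 slide. GFP, ST7 and LT7 replicate 2 shared a scan and LT7 replicate 1 was scanned apart. The deposited scanner files (Agilent Feature Extraction 10.5.1.1) hold the processed signal, an intensity that the authors' software had background-subtracted, with flags for probes well above background, saturated or outlying. The deposited series table holds the authors' log2 values after the 75th percentile shift, and served as an alternative. Recomputed values matched it within 0.01 once a constant offset per array was removed, except on 5 to 13 probes per array.

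Outlier spots (19 to 141 per array) were left out, spots of a probe were averaged on the log2 scale, and each array's 75th percentile over 61307 probes was subtracted. Groups were fitted on all 6 arrays with limma 3.58.1 in R 4.3.3, and p-values were Benjamini-Hochberg adjusted over all probes. The fit was tested on simulated data. One member probe, of Ascl2, lacked values in ST7. The number of arrays limits the precision. A gene was represented by its member probe with the highest mean log2 signal over GFP and ST7, passing over unnamed clones. Named were the 15 highest genes above background on no GFP array, the 10 highest and 10 lowest on all 4 arrays, the 8 widest disagreements, marker-list members and the 3 highest and 3 lowest members of 6 families (Hox, other homeobox, ribosomal, hnRNP, tubulin, collagen). A few of the genes so named are not reported here. Families were taken by symbol start, leaving out unrelated kinases and binding proteins of like names. Some genes of like symbol but other function stayed in the counts. Examples are Eif2c1, Eif2c2, Eif2c4 and Eif4enif1 among the translation factors and Psmc3ip in the proteasome. Members and lists were chosen with earlier results of these data known. Symbols are those of the array, and accessions gave current RefSeq symbols for 27619 of 28369 NM_ probes. Genome positions of the probes were not used here. Alternatives were other scalings, background correction, filters, the fold rule of the study's methods, a replicate block and leaving out arrays.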

Additional observations from a re-analysis of the deposited data

How the results depend on the processing

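The counts of members called turned on the scaling. After the percentile shift 5342 members were higher in ST7 and 732 lower. Without scaling the counts were 1016 and 3466, and with spike-in scaling, where the LT7 replicates had spike-in signals of 5048 and 299.5, 175 and 914. The LT7 arrays share the fit's estimate of spread, so these spike-in counts do not reflect the ST7 to GFP differences alone. The lower count was 1547 with the percentile over probes above background on all arrays and 1344 with normexp. The replicate block gave 5312 and 718; same-numbered deviations correlated at 0.33 for GFP and ST7 and at 0.09 and -0.03 with LT7, so the numbers were not taken as pairs. The fold rule of the study's methods gave 5173 and 626. Quantile normalization, the deposited series table, kept outlier spots, dim probes left out and GFP and ST7 arrays alone moved neither count by over 1.5 times. Leaving out arrays gave 5144 to 5352 higher and 631 to 731 lower. Genes found in ST7, 5664 as reported, numbered 9638 by the weaker mark of a positive and significant signal, 7017 on at least 1 ST7 array and 6312 to 6396 on a single one. Disagreeing genes, 1717 as reported, numbered 1832 to 2205 with other marks or probes, 1960 to 1974 with a single ST7 array and 1717 with identical sequences counted once, an alternative added after the values were seen.

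Of 104 named probes, 12 changed sign without scaling, by the construction of the shift. Their log2 differences were Vim -1.92, Acta2 -1.35, Tagln -2.0, Tubb3 -0.78, Utf1 -1.32, Hnrpll -4.32, Tubb2c -1.62, Tubb1 -2.31, Hoxd4 -0.55, Hoxd3 -0.63, Meis2 -1.11 and Rpl36a -0.12. With spike-in scaling 11 turned, namely Vim -1.75, Acta2 -1.18, Tagln -1.84, Tubb3 -0.62, Utf1 -1.15, Hnrpll -4.15, Tubb2c -1.45, Tubb1 -2.14, Hoxd4 -0.39, Hoxd3 -0.46 and Meis2 -0.94. With the percentile over shared probes Hnrpll -1.87 turned, and with normexp Hnrpll -1.04 and Grb10 0.19. Acta2 averaged over its member probes was -0.97, and Hnrpll was -0.072 without ST7 replicate 1 and 0.23 without ST7 replicate 2; the cause was not tested. Without scaling 16 further probes lost the call. With spike-in scaling 29 further probes did, with quantile normalization 4, with the percentile over shared probes 2 and with normexp 1. Hnrnph3 also lost it with the deposited series table and with outlier spots kept (limma, adjusted p = 0.055 and 0.056). Among the fits after the shift that left out an array, Cd86 lost the call without either GFP array, the middle Grb10 probe without GFP replicate 1 or ST7 replicate 1 and Hnrnph3 without ST7 replicate 2, while Hoxa7 gained it without either LT7 array. Saturation on the GFP arrays and signals near background in ST7 limit the folds to bounds.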
